A study of Mus musculus with 9 samples.

Results

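Tuft and microvillous chemosensory cell genes are described here in the olfactory mucosa of mice given dexamethasone, a synthetic agonist of the glucocorticoid receptor. The 10 genes, chosen by name, were Pou2f3, Ascl3, Foxi1, Gnat3, Plcb2, Trpm5, Trpc6, Chat, Il25 and Avil. All 10 had a probe, among 19084 named genes on the array. Trpm5 had 2 probes and the others 1 each, and the brighter Trpm5 probe by its mean over the 9 arrays stands for the gene. All animals were male C57BL/6 mice, wild type, aged 6 to 8 weeks. Injections went into the peritoneum: saline over 2 weeks in controls, dexamethasone (1 mg/kg) for 1 day in the group called D1, and the same dose daily over 2 weeks in the group called WK2. D1 and control thus also differ in how long injections lasted. Of 9 mice per group, 3 samples per group were hybridised, and these were picked for their expression of olfactory marker protein, so genes of olfactory neurons are no independent finding. Whether each sample was a different animal is not stated in the labels, so the p-values rest on the spread among the arrays at hand, and that spread may be technical.

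Beside the sensory neurons and their supporting cells, the olfactory lining holds scattered cells with a brush of microvilli and no axon to the brain. One kind depends on the transcription factor Pou2f3, carries the taste-type cascade from a G protein through phospholipase C to the cation channel Trpm5, and makes acetylcholine. The same kind of cell is known as the tuft cell in gut and airway, where it secretes interleukin 25 and starts type 2 immune responses. A second kind, marked by Ascl3 and Foxi1, resembles the ionocytes of airway and kidney, which move ions and protons across the epithelium. Another kind has been described by the lipid-gated channel Trpc6 together with phospholipase C.

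Promoter windows were read from RefSeq, build GRCm38.p6, for 8 of the 10 genes; Pou2f3 and Il25 have none in the table. Each window holds 250 bases before and 50 after the gene's start. The octamer ATGCAAAT, a site of POU factors such as Pou2f3, was in 0 of the 8 windows on either strand, against 1.74% of 32851 windows of all genes. AGAACA, the core letters of a glucocorticoid receptor element, was in 1 of the 8 on either strand, against 19.0% of all windows. That window belongs to Foxi1, on the minus strand, at chr11:34208040-34208339, and is shown because it is the 1 match; capitals mark AGAACA, which begins 23 bases after the first base of the gene. The Trpm5 window, on the minus strand at chr7:143094593-143094892, is shown because this gene varied most between arrays; it holds neither motif. A match is a description of letters, not a binding site.
Foxi1: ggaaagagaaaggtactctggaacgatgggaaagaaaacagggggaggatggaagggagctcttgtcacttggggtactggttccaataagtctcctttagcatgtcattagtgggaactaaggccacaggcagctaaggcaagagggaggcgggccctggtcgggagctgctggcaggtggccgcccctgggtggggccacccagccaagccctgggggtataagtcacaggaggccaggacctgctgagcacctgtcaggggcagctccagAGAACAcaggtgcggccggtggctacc
Trpm5: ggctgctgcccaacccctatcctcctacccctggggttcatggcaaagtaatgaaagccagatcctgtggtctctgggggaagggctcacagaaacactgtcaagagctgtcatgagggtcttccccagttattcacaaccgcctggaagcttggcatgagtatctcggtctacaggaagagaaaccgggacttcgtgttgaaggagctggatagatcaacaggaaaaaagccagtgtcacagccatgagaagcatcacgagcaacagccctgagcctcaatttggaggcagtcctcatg

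Array medians of intensity were 1202 to 1447 and Pearson's r between arrays of a group was 0.977 to 0.993 across features, which are not independent replicates. With 3 arrays a group, array number sets the precision. The defining genes of the labelled tissue were bright, with control means of 337461 for Omp, of mature olfactory neurons, and 425252 for Cyp2g1, of sustentacular cells. Omp encodes the protein for which the samples were picked, so its level is no independent check of the tissue. The sums of 6 marker lists, taken on unscaled values only, did not overlap between WK2 and control. Single features did not overlap in this comparison in 37.6% of cases, and 62.7% of all features lay above control. All 3 measured sustentacular markers and all 4 measured mast cell markers lay above control, while genes differed in direction within each of the other lists. The summed intensity of 5 of 5 basal cell markers was 29206 to 34036 in control and 42363 to 45292 in WK2, carried by Krt14 and Krt5, while Trp63 lay at -0.09 and Icam1 at -0.46. Gland and duct markers (5 of 5) summed to 349868 to 475947 in control and 621039 to 844630 in WK2, carried by Obp1a (mean 304077 in control and 578893 in WK2), while Muc5b lay at -0.77. The 3 measured of 5 sustentacular markers summed to 612362 to 728928 in control and 833814 to 977831 in WK2. The 5 markers of mature olfactory neurons summed to 780338 to 863798 in control and 900203 to 954184 in WK2. That sum was carried by Omp, the gene of the sample choice (mean 337461 in control and 506735 in WK2). Omp lay at 0.60, Adcy3 at -0.58 and Gnal at -0.44, none past the test. Vomeronasal markers (4 of 5 measured) summed to 90030 to 106842 in control and 45900 to 68672 in WK2. That sum was carried by Gnao1 (mean 81746 in control and 50789 in WK2), while the receptor gene Vmn1r45 lay at 0.13. Trpc2, the channel of vomeronasal neurons, was a small part of the sum (mean 1004 in control). It was lower by a log2 difference of -1.24 (adjusted p = 0.0495, limma). Mast cell markers, the sixth list, are given with the type 2 genes. None of these markers was at 0, and their part in the results on the 10 genes was not tested. In a bulk sample, fewer cells of a type and less RNA per cell cannot be told apart.

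Across the 3 comparisons none of the 10 genes passed the test. That test was limma's moderated test on log2(intensity + 50), with an adjusted p under 0.05 over 23631 features. Pou2f3 stood apart in its order of levels, the brighter Trpm5 probe in its spread, and the other 8 genes mostly overlapped between groups. The plot of intensity by array shows all 10 genes.

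**Figure D1:**
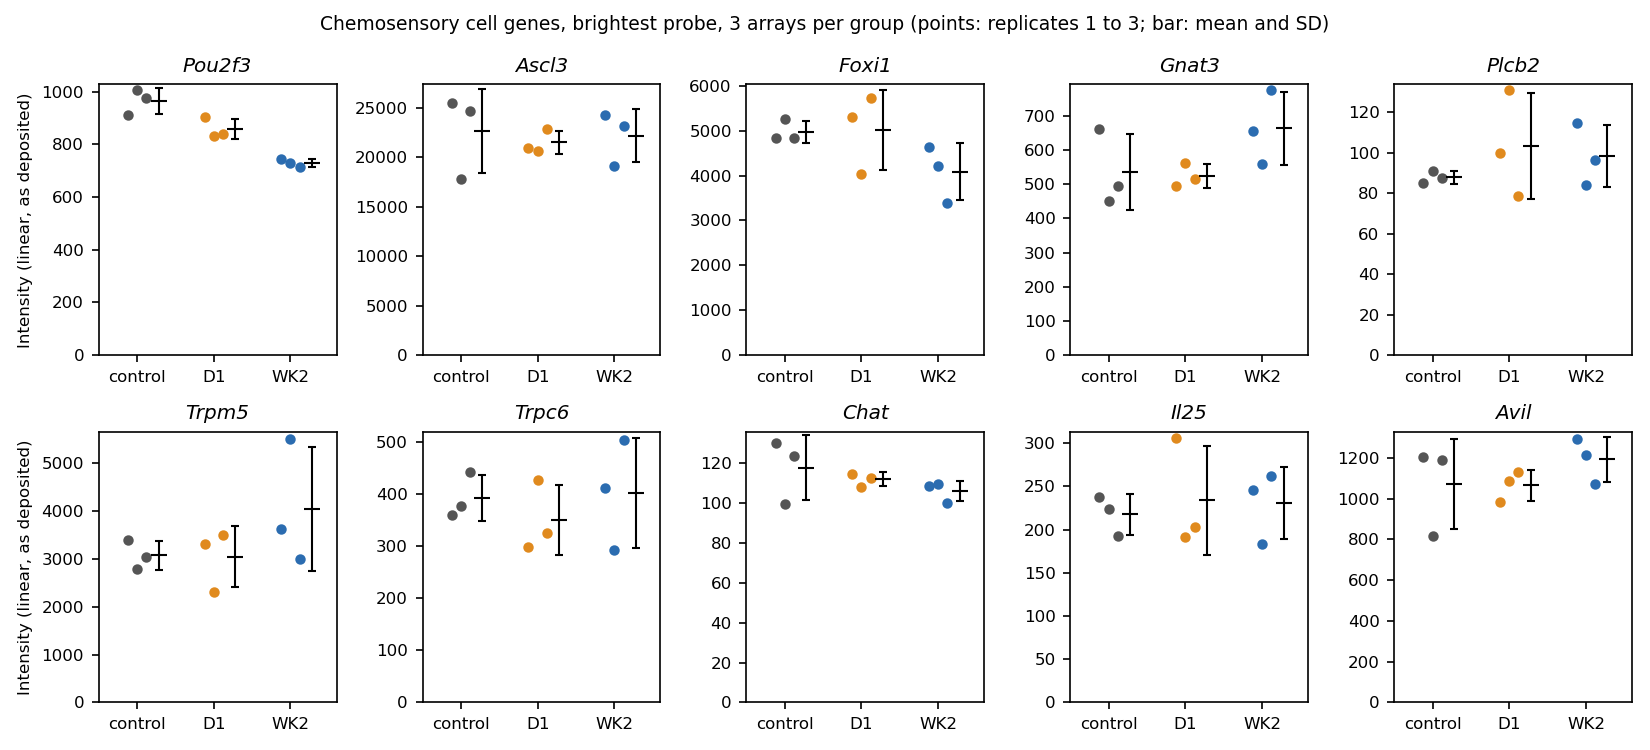
Intensity on a linear scale for the brightest probe of each of the 10 genes, with the 3 arrays of control, D1 and WK2 as points and the mean with its SD as a bar. Pou2f3 steps down from 911 to 1006 in control to 716 to 746 in WK2, and WK2 replicate 2 of Trpm5 lies highest at 5497.

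Among the transcription factors, Pou2f3, which specifies tuft cells and Trpm5-bearing microvillous cells, was lowest after 2 weeks. Its intensity was 911, 1006 and 976 in control replicates 1, 2 and 3. It was 903, 833 and 839 in the D1 arrays and 746, 728 and 716 in the WK2 arrays. All 3 groups were separate, with control above D1 and D1 above WK2, and the arrays of WK2 lay closest together (SD 15.1, against 48.4 in control). This order without overlap was seen after the values were known. It was shared by 253 of all features (1.07%), and 242 (1.02%) had the opposite order. The log2 difference of Pou2f3 was -0.38 ± 0.12 (SE, 3 arrays per group) in WK2 against control, a 1.30-fold lower level with a 95% interval of -0.66 to -0.10. It did not pass (adjusted p = 0.0942, limma) and was the 1 member with an unadjusted p under 0.05. The adjusted p was under 0.05 in 3 of 20 alternatives, at 0.0469 under quantile normalization, 0.0451 with a pseudocount of 500 and 0.0493 with array weights, and was 0.188 in the fit of the 2 groups alone. In D1 against control the difference was -0.16 ± 0.12 and in WK2 against D1 it was -0.22 ± 0.12, neither past the test (adjusted p = 1.00 and 0.336, limma).

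**Figure D2:**
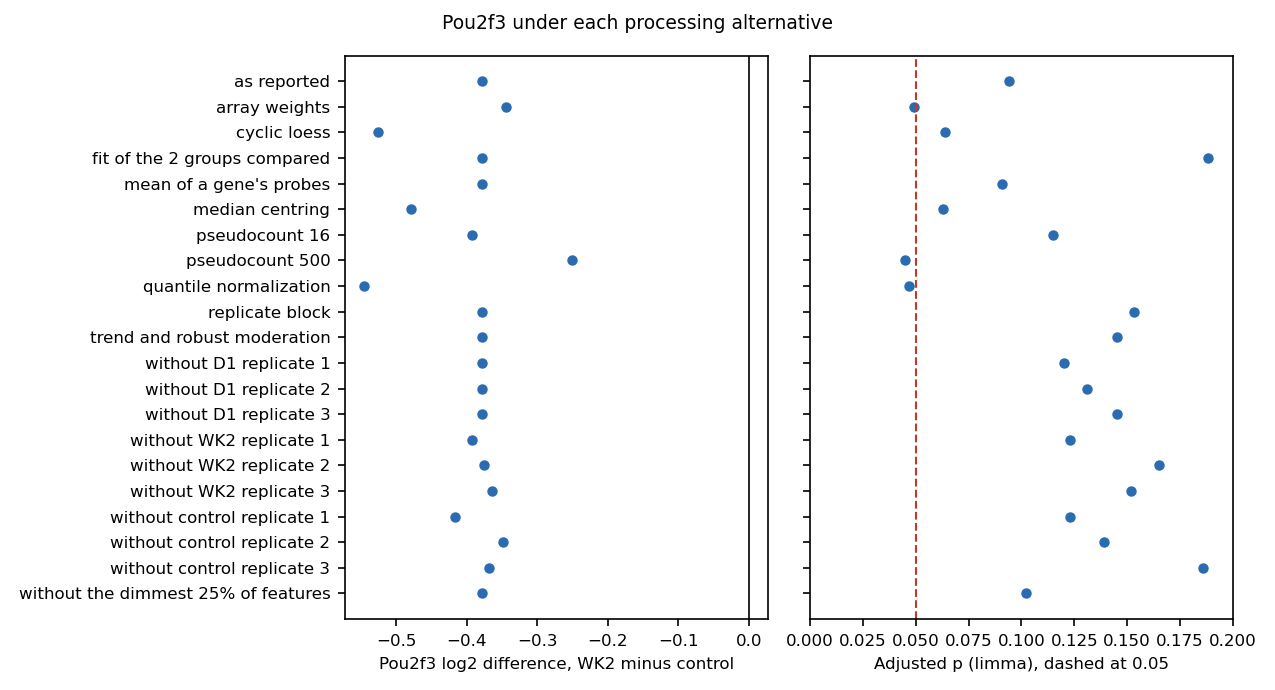
Pou2f3 in WK2 against control under each processing alternative, with its log2 difference on the left and its limma adjusted p on the right, dashed at 0.05. The difference stays below 0 throughout, from -0.55 to -0.25, while the adjusted p crosses 0.05 in 3 alternatives.

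Foxi1, the forkhead factor of ionocytes, had intensities of 4828, 5260 and 4845 in control, 5312, 4023 and 5716 in D1 and 4638, 4213 and 3392 in WK2. The WK2 arrays lay below the control arrays without overlap, while the D1 arrays overlapped both. Its log2 difference was -0.29 ± 0.18 (SE) in WK2 against control (95% interval -0.69 to 0.10, adjusted p = 0.275, limma), and -0.17 without WK2 replicate 3 and -0.15 with array weights. In D1 against control it was -0.0032 ± 0.18, and it turned from lower to higher under quantile normalization and cyclic loess and with array weights. Ascl3, a basic helix-loop-helix factor of microvillous cells and of gland ducts, was level, at 25514, 17772 and 24666 in control, 20981, 20681 and 22849 in D1 and 24270, 19137 and 23127 in WK2. Its groups overlapped in every comparison, and the difference was -0.06 ± 0.17 in D1 and -0.02 ± 0.17 in WK2 against control. The 95% interval for WK2 ran from -0.41 to 0.37. In WK2 against D1 its difference of 0.04 turned to lower under quantile normalization and median centring.

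Of the transduction genes, Trpm5, the calcium-activated cation channel at the end of the cascade, gave opposite readings on its 2 probes. The brighter probe had 3397, 2788 and 3037 in control, 3318, 2317 and 3501 in D1 and 3627, 5497 and 2996 in WK2. WK2 replicate 2 lay far above the other 8 arrays, and the groups overlapped. The dimmer probe had 856, 757 and 882 in control, 758, 577 and 810 in D1 and 770, 557 and 648 in WK2. On it the same array, WK2 replicate 2, was the lowest of the 9. The log2 difference in WK2 against control was 0.35 ± 0.24 (SE) on the brighter probe (adjusted p = 0.330, limma) and -0.32 ± 0.17 on the dimmer one (adjusted p = 0.231 in a limma fit of all 26423 probes). The mean of both probes gave 0.01, and the brighter probe gave 0.10 without WK2 replicate 2. The direction of Trpm5 after 2 weeks therefore depended on the probe.

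**Figure D3:**
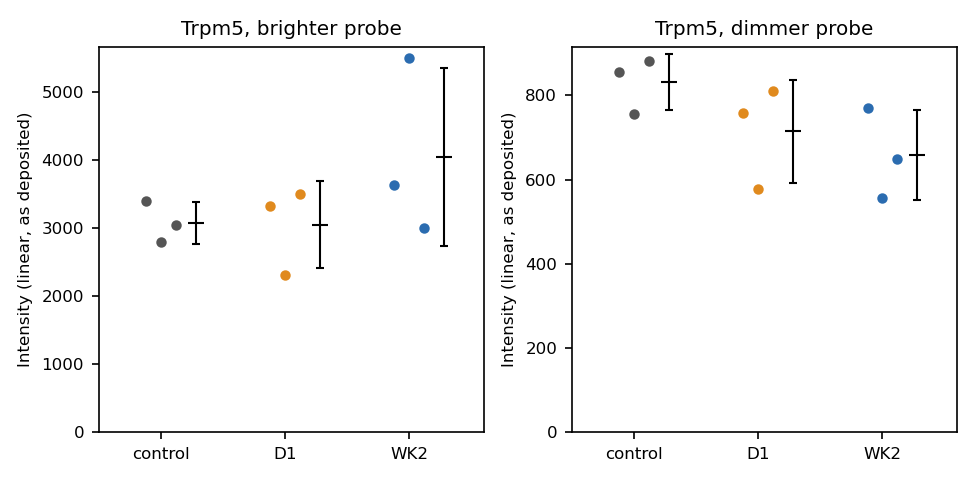
Intensity of both Trpm5 probes on a linear scale, each with its own axis, for the 3 arrays of control, D1 and WK2 as points and the mean with its SD as a bar. WK2 replicate 2 is the highest of 9 arrays on the brighter probe (5497) and the lowest on the dimmer probe (557).

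The profile of the brighter Trpm5 probe over the 9 arrays was most like those of LOC100862324 and Mir1a-1hg, the host gene of a muscle microRNA. Their profiles, each centred on its own mean, differed from it by a root mean square of 0.09 and 0.12 on the log2 scale, the smallest among 19083 genes. Mir1a-1hg stood at 145 in WK2 replicate 2 and at 44.8 to 81.1 elsewhere, and whether its probe stood above background is not known. Skeletal muscle markers (5 of 5 measured, none at 0) summed to 1224 to 2245 in control, 1466 to 2241 in D1 and 1939 to 3169 in WK2, with the highest sum in WK2 replicate 2. Their part in the Trpm5 value was not tested.

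Gnat3, gustducin, the G protein alpha subunit of taste cells, had 661, 450 and 495 in control, 495, 563 and 516 in D1 and 656, 559 and 774 in WK2. The highest WK2 array stood above all others, but control replicate 1 lay within the WK2 range. The log2 difference was 0.29 ± 0.18 (SE) in WK2 against control (adjusted p = 0.279, limma) and -0.01 ± 0.18 in D1. Without WK2 replicate 3 the first value was 0.18, without control replicate 2 it was also 0.18, and without control replicate 1 it was 0.44. It was 0.080 under quantile normalization, 0.095 under cyclic loess, 0.19 under median centring, 0.17 with a pseudocount of 500 and 0.18 with array weights. The profile of Gnat3 was most like those of the odorant receptor genes Olfr305 and Olfr878, at root mean squares of 0.05 and 0.06. Their intensities were 40.4 to 83.3 and 98.0 to 211, and whether these probes stood above background is not known.

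Plcb2, the phospholipase that releases inositol trisphosphate, was dim, at 85.0, 91.1 and 87.6 in control, 100.1, 131 and 78.8 in D1 and 115, 84.3 and 96.6 in WK2. The groups overlapped, with D1 replicate 2 the highest. Plcb2 is also a gene of leukocytes, and the leukocyte markers (10 of 10 measured, none at 0) summed to 166622 to 419994 in control, 254046 to 701668 in D1 and 337420 to 480922 in WK2, highest in D1 replicate 2 as well. Their part in the Plcb2 value was not tested. The log2 difference was 0.14 ± 0.16 in D1 against control and 0.10 ± 0.16 in WK2 against control, and the WK2 value turned to lower under quantile normalization and cyclic loess.

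Trpc6, a cation channel opened by diacylglycerol, had 359, 376 and 442 in control, 298, 426 and 326 in D1 and 411, 292 and 503 in WK2. The WK2 arrays held both the lowest and the highest of the 9 values. Its difference was -0.15 ± 0.20 in D1 and 0.01 ± 0.20 in WK2 against control, and the WK2 value was negative under quantile normalization, median centring, cyclic loess and array weights. Camsap2 and Cela1 had the profiles most like it, at root mean squares of 0.10 and 0.11. Smooth muscle also uses Trpc6, and its markers (5 of 5, none at 0) summed to 133933 to 150445 in control, 139409 to 154917 in D1 and 121621 to 168629 in WK2, lowest in WK2 replicate 2 and highest in WK2 replicate 3, as Trpc6 was; their part was not tested.

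Among the outputs, Chat, which makes acetylcholine, was dim, at 130, 99.3 and 124 in control, 115, 108 and 113 in D1 and 108, 110 and 100.2 in WK2. The control arrays held both the highest and the lowest value, so every group overlapped. The difference was -0.05 ± 0.13 (SE) in D1 and -0.10 ± 0.13 in WK2 against control, with a 95% interval of -0.40 to 0.20 for WK2. The WK2 value was -0.35 under quantile normalization (adjusted p = 0.0864, limma), -0.30 under cyclic loess, -0.20 under median centring and -0.027 with a pseudocount of 500. Il25, the cytokine that tuft cells send to lymphoid cells, had 238, 223 and 192 in control, 306, 191 and 203 in D1 and 246, 183 and 262 in WK2. All groups overlapped, D1 replicate 1 was highest and WK2 replicate 2 lowest. The differences, 0.06 ± 0.19 in D1 and in WK2 against control, both turned to lower under quantile normalization and cyclic loess, and the WK2 value also under median centring. Plcb2, Chat and Il25 lay among the dimmest 25% of features, where a fold change on the log2(intensity + 50) scale understates change. The table holds no detection calls, so whether these 3 probes stood above background is not known.

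Avil, advillin, an actin-binding protein of tuft cell brushes and of sensory ganglia, had 1205, 815 and 1190 in control, 981, 1088 and 1129 in D1 and 1292, 1213 and 1073 in WK2. Control replicate 2 was lowest, and the groups overlapped. The difference was 0.01 ± 0.17 (SE) in D1 against control and turned to lower under quantile normalization, median centring, cyclic loess and array weights. In WK2 against control it was 0.17 ± 0.17 (95% interval -0.22 to 0.56), and -0.01 without control replicate 2. Quantile normalization brought the WK2 value to 0.018. Markers of sensory ganglia and other peripheral neurons (3 of 5 measured, none at 0) summed to 6015 to 7523 in control, 6232 to 7122 in D1 and 4749 to 6093 in WK2, overlapping between WK2 and control. Prph made up most of that sum and lay at -0.32 in WK2 against control, while Trpv1 lay at 0.26 and Scn10a at 0.18, none past the test. Their part in the Avil value was not tested.

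Read against the whole array, 0 of the 10 genes were called in D1 against control, where limma called 0 of 23631 features (0%) and 473 (2%) had an unadjusted p under 0.05. In WK2 against control limma called 380 features (1.61%), 102 higher (0.432%) and 278 lower (1.18%), and in WK2 against D1 it called 22 (0.0931%), 7 higher (0.0296%) and 15 lower (0.0635%), in each case with 0 of the 10. Median centring gave 219 higher and 1324 lower in WK2 against control, and 10 higher and 40 lower in WK2 against D1; in the latter, quantile normalization gave 15 and 60. At an unadjusted p under 0.05 there were 0, 1 and 0 of the 10 genes in the 3 comparisons, against 2%, 29.7% and 19.2% of all features. Arrays did not overlap for 1 gene in D1 against control (10.1% of all features), 2 genes in WK2 against control (37.6%) and 1 gene in WK2 against D1 (31.4%). These were Pou2f3 in each comparison and Foxi1 in WK2 against control, all lower, where 5.19%, 13.8% and 12.6% of all features were lower without overlap. None of the 10 was higher without overlap, against 4.91%, 23.8% and 18.7% of all features. The median difference of the 10 genes was -0.02 in D1 and 0.03 in WK2 against control, beside 0.03 and 0.14 for all features. Under quantile normalization the WK2 median of the 10 genes was -0.17, with 3 rather than 6 of 10 above control, and it was -0.07 under median centring and -0.12 under cyclic loess. Scaling moved the median of all features in WK2 against control from 0.14 to 0.01 under quantile normalization. Relative to the median of 0.14, Pou2f3 lay at -0.52, Foxi1 at -0.43, Chat at -0.24, Trpm5 at 0.21 and Gnat3 at 0.15. Both comparisons share the control arrays. The 95% intervals reached 0.28 to 0.53 to either side of a gene's difference, so changes smaller than that were not resolved with 3 arrays per group.

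**Figure D4:**
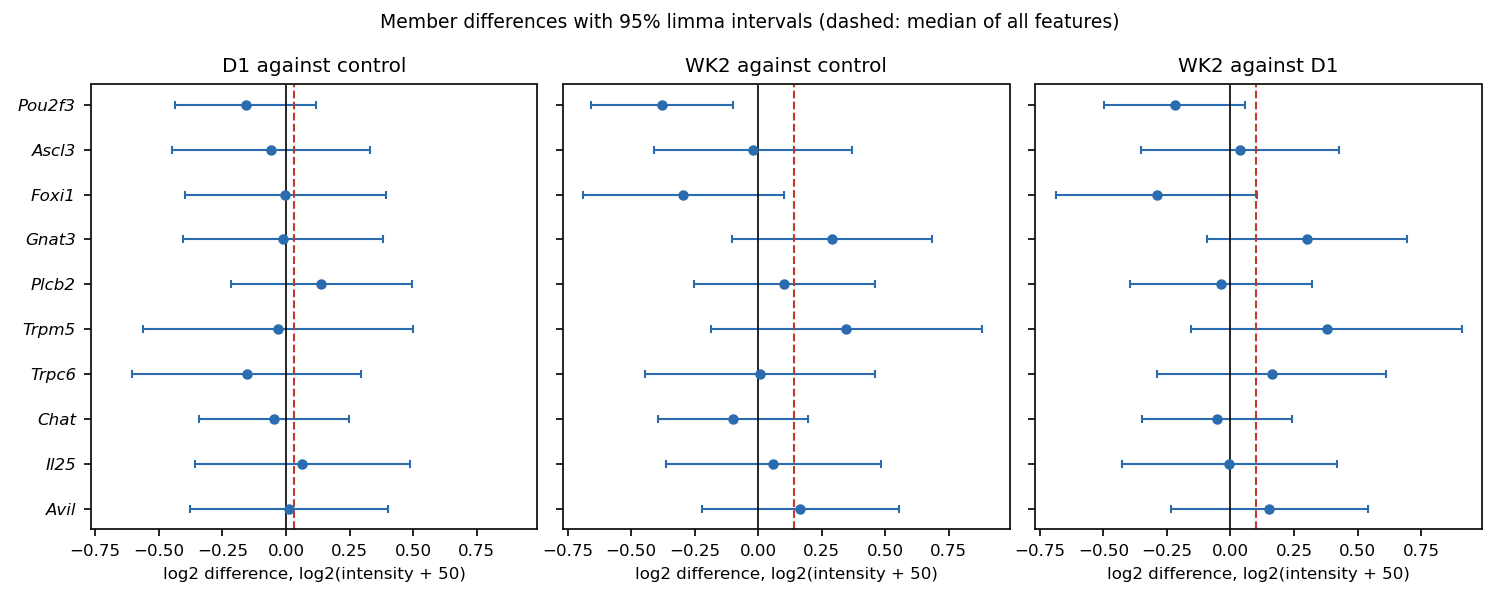
Log2 differences of the 10 genes with 95% limma intervals in the 3 comparisons, with the median of all features dashed. The interval of Pou2f3 in WK2 against control, -0.66 to -0.10, is the 1 interval that leaves out 0.

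The wider cascade and its partners were read from 8 lists of 89 genes, of which 85 were measured. Without the dimmest 25% of features 70 of them remained, and whether the dimmer probes stood above background is not known. In each of the 3 comparisons 0 of the 85 passed the limma test. The share of all features that passed was 0% in D1 and 1.61% in WK2 against control, and 0.0931% in WK2 against D1. The values below describe genes of smallest p in a list. After 2 weeks the genes with the smallest p belonged to several roles. Spib, an Ets factor of tuft cells that lymphoid cells also use, lay at -1.37 ± 0.30 (SE, adjusted p = 0.0523, limma) against control. Its intensity was 938, 1676 and 791 in control, 998, 812 and 601 in D1 and 520, 365 and 297 in WK2, so WK2 lay below both other groups. Of all features, 13.8% were lower without overlap in WK2 against control and 12.6% in WK2 against D1. Dclk1, a kinase used as a tuft cell marker and also made by young neurons, lay at -0.66 ± 0.15 (adjusted p = 0.0573). It had 11314, 11118 and 13295 in control, 10882, 8069 and 10110 in D1 and 7546, 7595 and 7373 in WK2. The 3 groups of Dclk1 were separate in the same order as those of Pou2f3, an order shared by 1.07% of all features. Spib was called in 6 of 20 alternatives and Dclk1 in 5 of 21. The median of the 14 measured tuft cell regulators was 0.01 in WK2 and 0.15 in D1 against control, and the WK2 median was -0.12 under quantile normalization, -0.09 under median centring and -0.08 under cyclic loess. In D1 against control the smallest p in this list were those of Dclk1, at -0.30, and Gfi1b, at 0.30, neither past the test.

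In the taste-type list, 13 of 14 genes lay above control in WK2, with a median of 0.41, beside 62.7% of all features above control and their median of 0.14. Under quantile normalization 8 of 14 lay above, with a median of 0.17, beside 51.1% and 0.01, since Gnb1, Rgs21, Tas2r105, Trpm4 and Adcy8 turned below control; under cyclic loess the same count was 8 and the median 0.20. Gnb3, a G protein beta subunit, lay at 1.00 ± 0.27 (SE, adjusted p = 0.0686, limma) and Gng13, the gamma subunit that olfactory neurons also use, at 0.52 ± 0.15 (adjusted p = 0.0777). Gnb3 had 5919, 3319 and 5413 in control, 4498, 8338 and 6443 in D1 and 8407, 11367 and 8965 in WK2, so all WK2 arrays were above the others. Of all features, 23.8% were higher without overlap in WK2 against control and 18.7% in WK2 against D1. Itpr3, the receptor that inositol trisphosphate opens to release calcium, lay below control under every scaling, at -0.82 ± 0.32 as deposited (adjusted p = 0.131). It had 2301, 3948 and 2511 in control, 2451, 3579 and 2919 in D1 and 1865, 2282 and 938 in WK2. The WK2 arrays of Itpr3 were all below the control arrays, as they were for 13.8% of all features. In D1 the taste-type median was 0.09, with Tas1r3, a taste receptor subunit, at 0.29 and Trpm4, the sister channel of Trpm5, at 0.41, neither past the test. Tas1r3, Rgs21 and Tas2r105 were dim, with control means of 146, 74.8 and 29.9.

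Of 10 genes for handling and sensing acetylcholine, 8 lay above control in WK2, with a median of 0.40. Of all features 62.7% lay above control, with a median of 0.14. The list median was 0.22 under quantile normalization and 0.26 under cyclic loess, again with 8 above. In these settings 51.1% and 53.4% of all features lay above control, with medians of 0.01 and 0.03. Bche, which breaks down choline esters, lay at 1.09 ± 0.24 (SE, adjusted p = 0.0536, limma). It had 2684, 2802 and 2841 in control, 2694, 3916 and 2831 in D1 and 4033, 7036 and 7446 in WK2, and it was called in 7 of 21 alternatives. The muscarinic receptor gene Chrm1 lay at 1.74 ± 0.52 (adjusted p = 0.0790, limma). Chrm1 had 214, 112 and 182 in control, 169, 243 and 536 in D1 and 613, 1574 and 295 in WK2, highest in WK2 replicate 2. In D1 the median was 0.10, with the nicotinic receptor subunit Chrna7 at 0.70 and Chrm3 at 0.21.

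In the list of interleukin 25 and type 2 signalling, Il33 and Tslp had the smallest p after 2 weeks. Il33, which like Il25 drives type 2 responses, had 57492, 64046 and 57648 in control, 58686, 58214 and 64183 in D1 and 87096, 82379 and 103238 in WK2. Its difference was 0.60 ± 0.14 (SE, adjusted p = 0.0578, limma) in WK2 and 0.02 ± 0.14 in D1 against control, and it was called in 3 of 21 alternatives. Tslp, another epithelial cytokine of type 2 responses, lay at 0.86 ± 0.28 (adjusted p = 0.0930, limma). Both Il33 and Tslp had WK2 arrays above the control arrays without overlap, as had 23.8% of all features. The list's median was 0.29 in WK2, with 8 of 10 above control, beside 62.7% of all features. Below control lay Il17ra, at -0.59 ± 0.23 (adjusted p = 0.126, limma), and Il4, at -0.02. Under quantile normalization and cyclic loess 6 of 10 lay above, with medians of 0.19 and 0.21, as Il17rb and Gata3 turned below control. Mast cell markers (4 of 5 measured, none at 0) summed to 5395 to 7727 in control, 6711 to 8329 in D1 and 8216 to 9427 in WK2, and their part in this list was not tested. In D1 the median was 0.0060, where Il5 lay at 0.24 and Gata3 at 0.22. In leukotriene and prostaglandin synthesis the median was 0.25 in WK2 (0.12 under quantile normalization), with Lta4h, which makes leukotriene B4, at -0.52 and the thromboxane synthase gene Tbxas1 at 0.48. In D1 the same genes had the smallest p of that list, at -0.41 and 0.43, and its median was 0.08, turning to -0.04 under quantile normalization.

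Among microvillus genes, Cdhr5, a cadherin that links microvillus tips, lay at 0.74 ± 0.22 (SE) and Espn, an actin bundler, at -0.73 ± 0.24 in WK2 against control (adjusted p = 0.0773 and 0.0932, limma). The median of that list was 0.17 in WK2 (0.015 under quantile normalization) and 0.13 in D1, where Eps8 lay at 0.91 and Vil1, villin, at 0.21. Vil1 was dim, with a control mean of 102. Krt8, which counts in the median, read 0 in every array but D1 replicate 2 (1.09). In the ionocyte and proton-pump list the median was 0.10 in WK2 and 0.01 in D1, and median centring turned them to -0.0051 and -0.04. Bsnd, a chloride channel subunit, lay at 0.51 ± 0.16 and Hepacam2 at 0.49 ± 0.19 in WK2. In D1 the smallest p was that of Atp6v0a4, a proton pump subunit, with 3056, 2724 and 1872 in control and 5494, 3829 and 4474 in D1. Its D1 difference was 0.85 ± 0.24 (adjusted p = 1.00, limma), and in WK2 it overlapped control, at 3843, 2321 and 3351. Stap1 was next by p in D1, at -0.40. In the inositol trisphosphate type of microvillous cell, 4 of 6 genes lay below control in WK2, with a median of -0.16. Of all 23631 features, 8811 lay below control, and the median of all was 0.14. Under quantile normalization 4 of 6 again lay below control, with a list median of -0.17. In that setting 11554 of all features lay below control, and their median was 0.01. The list was led by Itpr3, which the taste-type list also holds, and by Entpd2, which splits extracellular ATP, at -0.62 ± 0.29. In D1 the median was -0.05, with Moxd1 at -0.20 and Nt5e at -0.23.

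**Figure D5:**
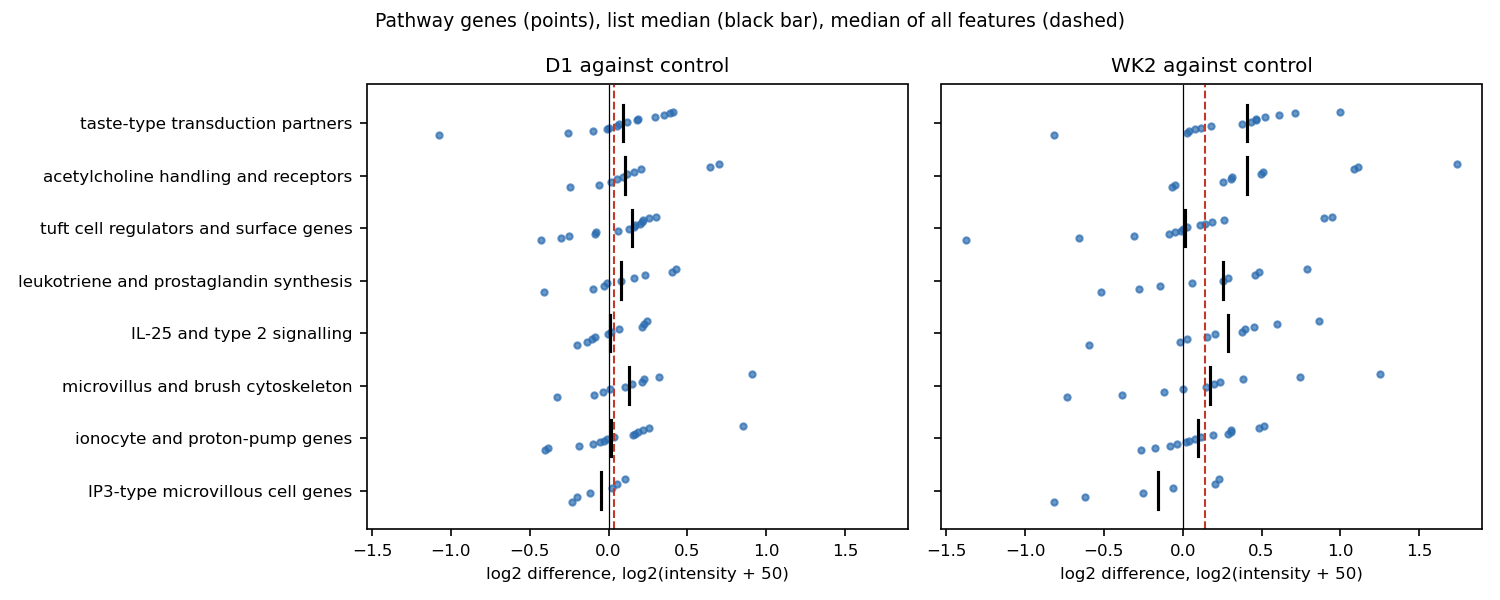
Log2 differences of the 85 measured pathway genes in D1 and WK2 against control, 1 point per gene in each of the 8 lists, with the list median as a black bar and the median of all features dashed. In WK2 the taste-type and acetylcholine medians, 0.41 and 0.40, lie right of the dashed line at 0.14 on the unscaled values (0.17 and 0.22 beside 0.01 under quantile normalization), and the inositol trisphosphate list lies left of it.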

How the data were processed

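Total RNA was labelled with Cy5 and hybridised to 1-colour arrays, per the labels' protocols. The authors deposited intensity values on a linear scale, 26423 probes by 9 arrays, and how they were scaled is not given in the sources used here; 8 to 18 values per array lay below 0. Probes were named through the platform annotation (21876 with 1 symbol, 4547 with none), updated by gene ID through RefSeq for 21825 probes. The brightest probe by mean stood for a gene, which left 23631 features. Negative values were set to 0, log2(intensity + 50) was taken with no further scaling, and all 9 arrays were fitted in limma 3.58.1 under R 4.3.3, with Benjamini-Hochberg adjustment over all features. An exact permutation test of 3 arrays against 3 cannot go below 0.1. The script was tested on simulated data.

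The 10 genes and all lists were chosen with earlier results of these data known. Named list genes are the 2 of smallest p per list in each comparison with control; those whose values are given beyond that, and the arrays and patterns singled out, were chosen after their values were seen. Genes of like profile were sought for the 3 members of largest SD. Other settings tried were 3 further scalings (quantile normalization, cyclic loess, median centring), pseudocounts of 16 and 500, dropping the dimmest 25% or 50% of features, averaging the probes of a gene, limma's trend and robust options, array weights, a block for replicate number, a fit of only the groups compared, and omission of each array in turn.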

Additional observations from a re-analysis of the deposited data

How the results depend on the processing

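With 3 arrays per group, calls over the whole array depended on the fit. The count in WK2 against control was 2728 with array weights, 1543 under median centring, 1420 under quantile normalization, 1135 and 576 without the dimmest 50% and 25% of features, 779 and 131 with pseudocounts of 500 and 16, 682 under cyclic loess, 0 in the fit of the 2 groups (5780 at an unadjusted p under 0.05, limma) and 1 to 955 leaving out 1 array, with 955 without WK2 replicate 1 and 37 or fewer without any of the other 8. In WK2 against D1 it was 134 with array weights, 75 under quantile normalization, 53 under cyclic loess, 50 under median centring, 36 without the dimmest 25%, 13 with a pseudocount of 500, 2 in the fit of the 2 groups and 1 to 27 leaving out 1 array; in D1 against control leaving out 1 array gave 0 to 1. With the replicate number as a block the counts were 0 (D1 against control), 1 (WK2 against control) and 6 (WK2 against D1). The numbers do not pair the arrays: same-numbered arrays correlated at -0.28 to 0.14, 2 of 9 pairs were over 0.1, and 1 of 9 arrays correlated best with its own number. Of the 10 genes, 1 (Pou2f3) was called in WK2 against control with array weights, a pseudocount of 500 or quantile normalization, and 0 under the other alternatives; leaving out 1 array gave 0 to 0. Pou2f3 could not be tested without the dimmest 50% of features.

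Of 600 values of single members under alternatives, 546 kept their direction and side of the threshold, 51 turned sign and 3 passed the threshold. In D1 against control Avil was -0.11 with array weights, -0.056 under cyclic loess, -0.040 under median centring and -0.069 under quantile normalization. Foxi1 was 0.086 with array weights, 0.015 under cyclic loess and 0.011 under quantile normalization, and Il25 was -0.033 under cyclic loess and -0.053 under quantile normalization. In WK2 against control Il25 was -0.15 under cyclic loess, -0.041 under median centring and -0.20 under quantile normalization, and Plcb2 was -0.091 and -0.14 under cyclic loess and quantile normalization. Trpc6 was -0.078 with array weights, -0.20 under cyclic loess, -0.094 under median centring and -0.22 under quantile normalization. In WK2 against D1 Ascl3 was -0.0097 under median centring and -0.024 under quantile normalization, and with array weights Il25 was 0.052 and Plcb2 0.086. Leaving out 1 array, D1 against control ran from -0.22 to 0.037 for Ascl3, -0.16 to 0.10 for Avil, -0.13 to 0.0077 for Chat, -0.10 to 0.15 for Foxi1, -0.12 to 0.14 for Gnat3, -0.11 to 0.17 for Il25 and -0.14 to 0.15 for Trpm5. WK2 against control ran from -0.18 to 0.083 for Ascl3, -0.0100 to 0.26 for Avil, -0.023 to 0.19 for Il25 and -0.15 to 0.20 for Trpc6, and WK2 against D1 from -0.030 to 0.14 for Ascl3, -0.11 to 0.17 for Il25 and -0.16 to 0.090 for Plcb2. The cause of each turn was not tested.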
